A study of Mus musculus with 4 samples.

Results

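Class IIa histone deacetylases (Hdac4, Hdac5, Hdac7, Hdac9), CREB-regulated transcription coactivators (Crtc1, Crtc2, Crtc3) and myocyte enhancer factors (Mef2a, Mef2c, Mef2d) were followed as RNA across the cell types of mouse motor cortex. They were taken by gene symbol, 10 genes of 32286 features, and all 10 were found in each library. Salt-inducible kinases (SIKs) phosphorylate class IIa HDACs and CRTCs, and the phosphorylated proteins are bound by 14-3-3 proteins and held in the cytoplasm. Unphosphorylated class IIa HDACs enter the nucleus, where they bind MEF2 factors and repress their targets, and unphosphorylated CRTCs enter it to co-activate CREB. In neurons, MEF2 and CREB targets include genes of synaptic plasticity. RNA counts measure the transcripts of these genes, and neither phosphorylation nor the location of the proteins.

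C57BL/6N mice at different sleep need were the source of the nuclei, taken from primary motor cortex and sequenced as 4 libraries, 1 for each group. The ad lib sleep mice had no sleep deprivation, and the sleep deprivation group was kept awake by gentle handling. The remaining groups received a local AAV8-hSyn-FLAG-SIK3 vector, with either wild-type SIK3 (WT) or SIK3 without exon 13 (Ex13del), which the design text calls a gain-of-function mutant. Both vectors use the human synapsin promoter (hSyn), which is active in neurons, and neither vector group is labelled as sleep deprived. How many animals were pooled, and their age, is not given in the sources used here. A group of 1 library allows no test of a difference, so levels and ratios are given with exact 95% intervals that cover counting error only.

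Libraries held 43655557 to 54070503 UMIs in 5944 to 9438 barcodes, and 5302 to 8242 nuclei were kept. Excitatory neurons numbered 3608 (ad lib sleep), 1837 (sleep deprivation), 2653 (WT) and 2055 (Ex13del), an order kept below for every run of 4 values. Their median depth was 7556, 14032, 9357 and 10226 UMIs, so the sleep deprivation library stood apart by depth. It also stood apart by nuclei left without a class name, 1661 of 5302 kept nuclei against 974 of 8242, 944 of 6352 and 855 of 5512. Of the unnamed nuclei, 601, 1468, 694 and 612 were in 1 cluster with a median of 1014 UMIs. That cluster passed the excitatory marker rule and was left unnamed for low depth and no marker among its leading genes. Excitatory counts and median depths depend in part on that choice. Class names stand for clusters that resemble a type by markers: in each library 9 of 9 microglial markers and 8 of 8 mural markers were highest in the class of that name, but 6 or 7 of 9 excitatory markers and 3 of 5 markers of layer 5 intratelencephalic (L5 IT) neurons. Striatal projection neuron-like nuclei were present beside the cortical types. Levels are UMI counts scaled to a class total of 1000000 (CPM). They are compared between cell types and libraries, not between genes, because long genes gather more counts in nuclei.

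On mm10 the HDAC genes lie at chr1:91928779-92195699 (Hdac4), chr11:102194432-102230166 (Hdac5), chr15:97792664-97844502 (Hdac7) and chr12:34047580-34917095 (Hdac9), all on the minus strand. Crtc1 lies at chr8:70382355-70439579 and Crtc3 at chr7:80586627-80688877 on the minus strand, and Crtc2 at chr3:90254163-90264125 on the plus strand. Mef2a lies at chr7:67231163-67372858 on the minus strand, Mef2c at chr13:83504034-83667080 and Mef2d at chr3:88142372-88172086 on the plus strand. All are protein-coding and the counted RNA can come from any part of them, since whether introns or strand were used in counting is not given in the sources used here. Protein-coding Slc48a1 overlaps Hdac7 and protein-coding Lysmd4 overlaps Mef2a on the opposite strand, and without use of strand the reads of these pairs could not be told apart. On the same strand, noncoding features lie over Hdac4 (Gm37036), Hdac5 (Mir8101), Hdac9 (Gm18025, Gm47357 and 4921508M14Rik), Crtc3 (Gm44931) and Mef2a (Gm44667 and Gm44668), and how their reads were divided is not given in the sources used here.

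Promoter windows (250 bases before to 50 after a start, from RefSeq on GRCm38.p6) were given for 9 of the 10 genes, as 15 windows. They were searched on both strands for the MEF2 site, for the cyclic AMP response element (CRE) that CREB binds, which is TGACG followed by TCA, and for the CRE half-site TGACG, which the full element contains. A MEF2 site was found in 2 of the 15 windows, those of Mef2a and Hdac5, and in 3.19% of 32851 windows of all genes. CRE half-sites were found in 2 of the 15 windows, those of Hdac4 and Hdac5, against 20.8% of all windows, and the full CRE in 0 of the 15, against 1.79%. The 3 stretches are shown for the MEF2 matches of Mef2a and Hdac5 and for 2 of the 3 half-sites of Hdac4, in capitals; each is the minus strand and ends at or near the start of transcription. The half-sites of Hdac5 and the third of Hdac4 lie after the start, outside the stretches. A match is a description of letters and not a site of binding. The Mef2a (chr7:67372851-67372978) and Hdac5 (chr11:102230173-102230292) stretches hold the MEF2 site, and the Hdac4 stretch (chr1:92180342-92180461) holds the half-sites.
Mef2a: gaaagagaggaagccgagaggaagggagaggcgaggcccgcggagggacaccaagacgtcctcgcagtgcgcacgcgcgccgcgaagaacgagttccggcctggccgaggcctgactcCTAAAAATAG
Hdac5: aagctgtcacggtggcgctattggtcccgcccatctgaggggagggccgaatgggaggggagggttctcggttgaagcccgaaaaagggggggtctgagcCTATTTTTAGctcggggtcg
Hdac4: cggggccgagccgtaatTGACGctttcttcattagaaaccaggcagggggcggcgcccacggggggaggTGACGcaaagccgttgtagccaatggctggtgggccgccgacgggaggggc

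The genes differed in where they were high. Mef2a and Mef2c were highest in microglia in all 4 libraries, Hdac7 was highest in endothelial or mural cells, and Crtc3 was higher in astrocytes, mural cells and inhibitory neurons than in excitatory neurons. Hdac9 had its highest mean in microglia, where it was highest in 3 of 4 libraries, and Hdac4 in fibroblasts (134 to 195 CPM in 34 to 60 nuclei). Crtc1 was higher in excitatory than in inhibitory neurons. Excitatory markers in other classes served as a guide to background, whose source, such as free RNA, was not measured. They reached a median of 0.329 to 0.434 of their excitatory level in astrocytes and 0.274 to 0.796 in microglia. The median was 0.584 to 0.921 in endothelial cells, 0.246 to 0.354 in mural cells and 0.1252 to 0.1985 in inhibitory neurons. Single markers spread widely around these medians, from 0 to 0.8225 in microglia (sleep deprivation) and from 0.1135 to 1.316 in endothelial cells (WT). Levels in glia and vessels at or under the median shares are therefore not told apart from background.

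**Figure D1:**
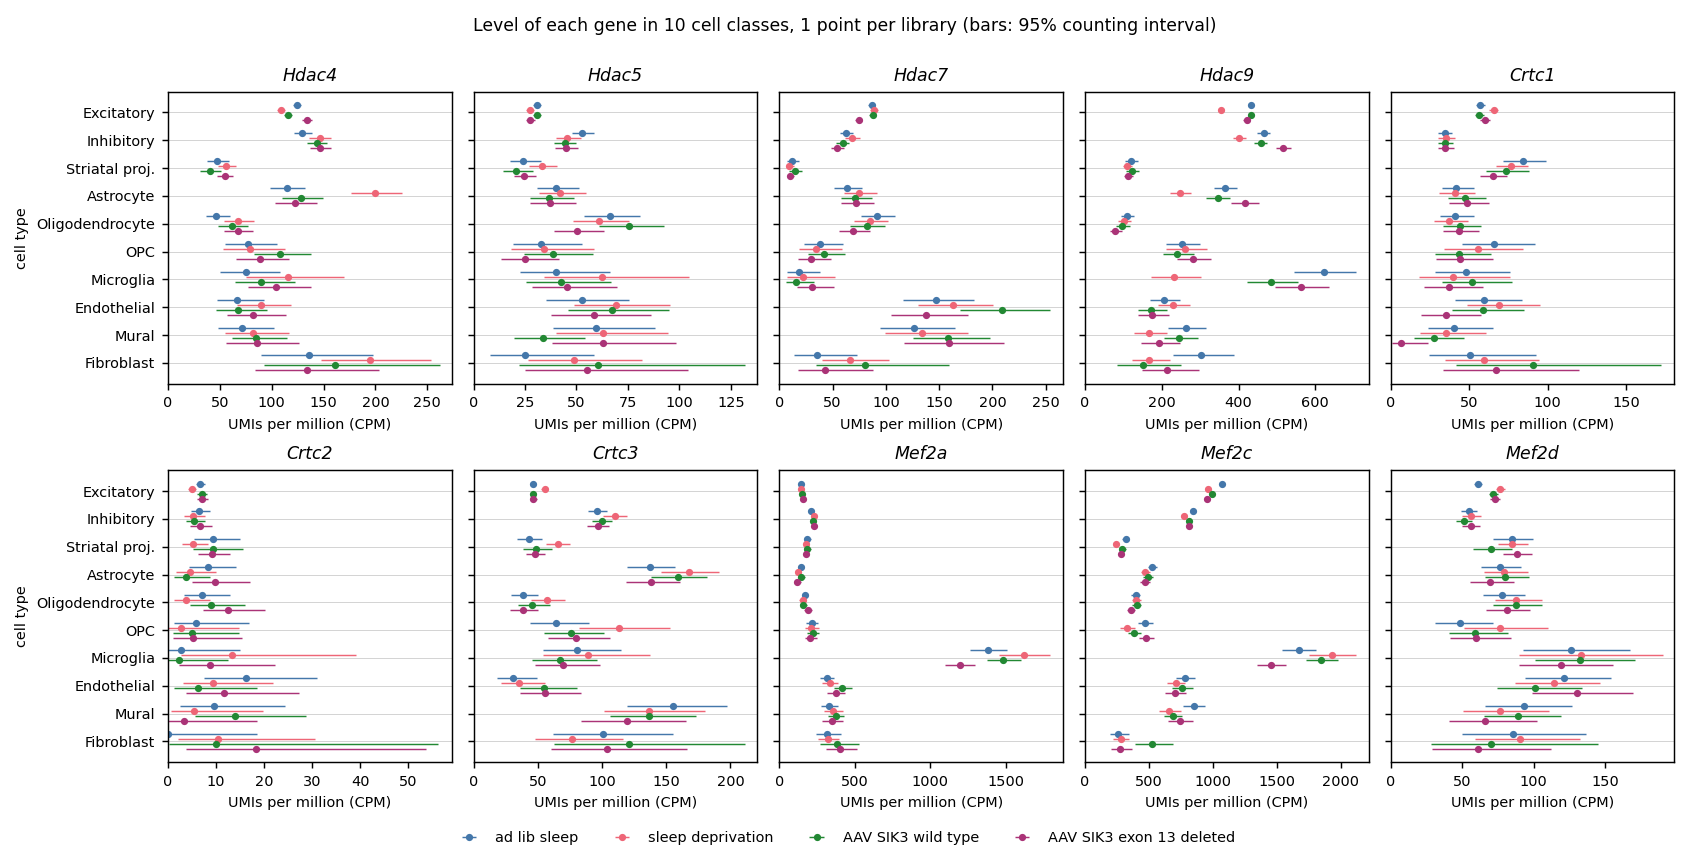
Level of each gene (horizontal axes, CPM) in 10 cell classes (vertical axis); each point is 1 library and each bar its 95% counting interval. Mef2a and Mef2c stand highest in microglia in all 4 libraries, Hdac7 in endothelial and mural cells, and Hdac9 in microglia is lower in the sleep deprivation library (231 CPM) than in the others (486 to 622 CPM).

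Mef2c, the MEF2 factor known for its part in cortical synapse number and in microglial restraint, measured 1672, 1931, 1848 and 1455 CPM in microglia and 1072, 963.9, 992.8 and 957 CPM in excitatory neurons. Microglia thus lay above excitatory neurons in each library, by 1.52 to 2.003 times. In oligodendrocytes Mef2c reached 0.369 to 0.416 of the excitatory level. That is under the median share of excitatory markers there (0.458 to 0.483) and above their lowest (0.0914 to 0.154), and was not told apart from background. In endothelial cells it was above the share of excitatory markers in the ad lib sleep (0.732 against 0.584) and sleep deprivation libraries (0.736 against 0.588) and under it in the WT (0.764 against 0.921) and Ex13del libraries (0.736 against 0.857). Striatal projection neuron-like nuclei had 316.9, 242.1, 292.7 and 282.7 CPM.

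Mef2a, a broadly expressed relative, measured 1383, 1619, 1484 and 1194 CPM in microglia against 146.5, 145.2, 152.7 and 156.8 CPM in excitatory neurons. The microglial level was 7.62 to 11.2 times the excitatory level, far above the median share of excitatory markers there (0.274 to 0.796). Endothelial and mural cells came next at 315 to 417 and 331 to 373 CPM. Mef2d, which is also widespread, was flatter: 61.28, 76.75, 71.83 and 73.03 CPM in excitatory neurons and 125.9, 133.5, 132.6 and 119.4 CPM in microglia.

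Hdac7, known as the class IIa HDAC of endothelium and lymphocytes, measured 146.7, 162.8, 208.6 and 137.6 CPM in endothelial cells and 126.4, 133.9, 158.7 and 159.3 CPM in mural cells. Excitatory neurons had 86.86, 88.81, 87.71 and 74.5 CPM, below both vascular classes in all 4 libraries. Striatal projection neuron-like nuclei had the lowest level, 9.20 to 14.4 CPM, or 0.104 to 0.165 of the excitatory level. Endothelial and mural levels overlapped.

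Hdac9, the class IIa HDAC gene with many brain splice forms, measured 431.4, 354.8, 432.4 and 421.1 CPM in excitatory and 465.2, 402, 457.8 and 516.5 CPM in inhibitory neurons. Microglia had 621.6, 231.4, 485.6 and 562.4 CPM and astrocytes 364.6, 247.9, 345.4 and 416.2 CPM. The sleep deprivation library was the lowest of the 4 in each of these classes. Oligodendrocytes had 78.9 to 110 CPM, or 0.187 to 0.287 of the excitatory level. That is under the median share of excitatory markers there and above their lowest (0.0914 to 0.154), and was not told apart from background.

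Hdac4, the class IIa HDAC tied to synaptic gene repression, measured 124.4, 108.9, 115.6 and 134.3 CPM in excitatory and 129.7, 146.5, 143.3 and 146.6 CPM in inhibitory neurons. Astrocytes had 114.3, 199.7, 128.4 and 122.3 CPM, the sleep deprivation library standing above the other 3. Hdac5, which shuttles with neuronal activity, was lower in excitatory neurons (30.9, 27.42, 30.68 and 27.59 CPM) than in inhibitory neurons (52.87, 45.63, 44.32 and 44.87 CPM), and the groups of 4 did not overlap.

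Among the CREB coactivators, Crtc1, the form enriched in brain, measured 57.17, 65.6, 56.51 and 60.06 CPM in excitatory and 34.59, 35.18, 34.93 and 34.73 CPM in inhibitory neurons. Striatal projection neuron-like nuclei had 65.0 to 84.3 CPM. Crtc3 had the reverse order: 46.47, 55.47, 46.32 and 46.57 CPM in excitatory and 96.25, 110, 99.61 and 96.88 CPM in inhibitory neurons. Astrocytes had 137.2, 167.6, 159.2 and 138.5 CPM of Crtc3, at 2.95 to 3.44 times the excitatory level, and mural cells 155, 136.6, 136.9 and 119.5 CPM. Crtc2, the form known from liver, was near the low end everywhere, with 6.699, 4.944, 7.041 and 7.182 CPM in excitatory neurons, and its order over classes was not readable at this depth.

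Within excitatory neurons the layers sorted the genes in opposite ways. Names of layer classes are L2/3 to L6 with the projection type: intratelencephalic (IT), extratelencephalic (ET), near-projecting (NP) and corticothalamic (CT). Hdac4 was lowest in L2/3 IT (81.7, 73.08, 79.56 and 92.55 CPM) in each library and stood at 161.7, 151.4, 154.5 and 172.7 CPM in L6 CT. Hdac9 ran the other way, with 602.6, 501.7, 582 and 589.7 CPM in L2/3 IT and 201.5, 159.1, 211.5 and 187.5 CPM in L6 CT, its lowest layer in each library. L5 ET neurons, which project to brainstem and spinal cord, had the highest mean of Hdac9 (678.7, 480.1, 592.5 and 667.9 CPM), above L2/3 IT in 3 of 4 libraries.

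Mef2c was highest in L4/5 IT in all 4 libraries (1681, 1415, 1429 and 1529 CPM) and had its lowest mean in L6b (466, 463.5, 450 and 472.7 CPM), with L2/3 IT next to the top at 1109 to 1396 CPM. Hdac7 was also highest on average in L4/5 IT (125.4, 134.8, 111.8 and 103.3 CPM) and lowest in L5/6 NP (35.2, 20.91, 33.06 and 36.29 CPM). Mef2a instead had its highest means in L5/6 NP, L6b and L6 CT, at 180 to 236 CPM over these 3 layers, which overlapped one another. Its level was 102 to 114 CPM in L5 ET. Crtc1 was highest in the mean in L2/3 IT (68.5 to 79.7 CPM) and lowest in L6b (20.3 to 41.5 CPM), and Crtc3 was highest in the mean in L5/6 NP (72.6 to 88.6 CPM) and lowest in L4/5 IT (31.7 to 37.0 CPM). Layers of Hdac5, Crtc2 and Mef2d overlapped through most of the order: 22.3 to 24.5 CPM in the lowest layer and 27.3 to 48.4 CPM in the highest for Hdac5, 53.8 to 71.4 and 76.1 to 83.7 CPM for Mef2d.

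Interneuron types carried the same contrast between Hdac4 and Hdac9. Sst neurons had 199.2, 227.7, 244.6 and 234.6 CPM of Hdac4 against 65.06, 85.12, 78.02 and 76.27 CPM in Vip neurons. Hdac9 measured 971.6, 744.8, 1003 and 924.3 CPM in Lamp5 and Sncg neurons and 758.2, 641, 628.7 and 825.5 CPM in Vip neurons, against 259.7, 214.4, 271.7 and 348 CPM in Pvalb neurons. Hdac7 was higher in Vip (101 to 132 CPM) than in Pvalb neurons (33.2 to 37.3 CPM), and Mef2c was highest in Pvalb neurons (1212, 1030, 1088 and 1144 CPM) in all 4 libraries. The Lamp5 and Sncg name rests on 2 or 3 of 6 markers that were highest there.

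For each gene the closest patterns over 76 units of cell type and library were read from Pearson's r of log2(CPM + 1) among 14185 genes, as a description; the units share libraries. Lysmd4 was closest to Mef2a (r = 0.925), and it is the gene that overlaps Mef2a on the opposite strand; Srgap2 followed (0.890). Arhgap15 and Zdhhc6 were closest to Mef2c (0.766 and 0.763), and Calm2 and Arpc2 to Mef2d (0.806 and 0.778). Homer2 and Trpc5 were closest to Hdac9 (0.780 and 0.706), Plekha7 and Satb1 to Hdac4 (0.750 and 0.746), Flii and Unc5b to Hdac5 (0.781 and 0.760), and Fam129b and Gm13919 to Hdac7 (0.753 and 0.672). Camkk2 and Slc24a4 were closest to Crtc1 (0.755 and 0.746) and Tnrc6a and Tox2 to Crtc3 (0.786 and 0.754). Crtc2 was too low for the rule.

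After sleep deprivation, Hdac9 was lower in excitatory neurons than after ad lib sleep, and its ratio was below 1 in 8 of 10 classes. Excitatory neurons had 354.8 CPM after sleep deprivation and 431.4 CPM after ad lib sleep, a ratio of 0.822 (95% counting interval 0.801 to 0.844), while both vector libraries lay at the ad lib level. Mef2d was higher (76.75 against 61.28 CPM, ratio 1.25, 1.18 to 1.33) and Crtc2 lower (4.944 against 6.699 CPM, 141 against 204 UMIs, ratio 0.738, 0.591 to 0.919). Those 3 of 10 genes were past a fold of 1.2, and 27.9% of the 11998 genes above a floor of 5 CPM were past it too, so the count is near the background. The median log2 ratio was -0.08 over the 10 genes and -0.03 over all genes. Of all genes 10.9% were past it higher and 17.05% lower, and 14.3% and 13.5% with TMM or DESeq2 factors.

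With nuclei thinned to 2000 UMIs, and shallower nuclei left out, Hdac9 was the single gene of the 10 past the fold (ratio 0.795), where 37.6% of all genes were, Mef2d came to 1.11 and Crtc2 turned to 1.14. Against the WT vector library in place of ad lib sleep, Mef2d was 1.07. The other 7 genes were inside the fold: Crtc3 1.19 (1.11 to 1.28), Crtc1 1.15 (1.07 to 1.23), Hdac7 1.02, Mef2a 0.991, Mef2c 0.899 (0.885 to 0.914), Hdac5 0.887 and Hdac4 0.876 (0.835 to 0.918). No marker of the other classes was at 0 in excitatory nuclei of any library. From ad lib sleep to sleep deprivation their summed level went from 209 to 152 CPM for the 9 microglial markers, from 719 to 680 CPM for the 9 astrocyte markers, from 161 to 120 CPM for the 8 inhibitory markers, and from 832 to 1128 CPM for the 10 striatal markers. The highest single marker made up 727.5 and 1012 CPM of the striatal sums, and 560.9 and 553.8 CPM of the astrocyte sums. These sums therefore mostly follow 1 marker each and do not describe their lists. The part of these markers in the ratios was not tested.

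**Figure D2:**
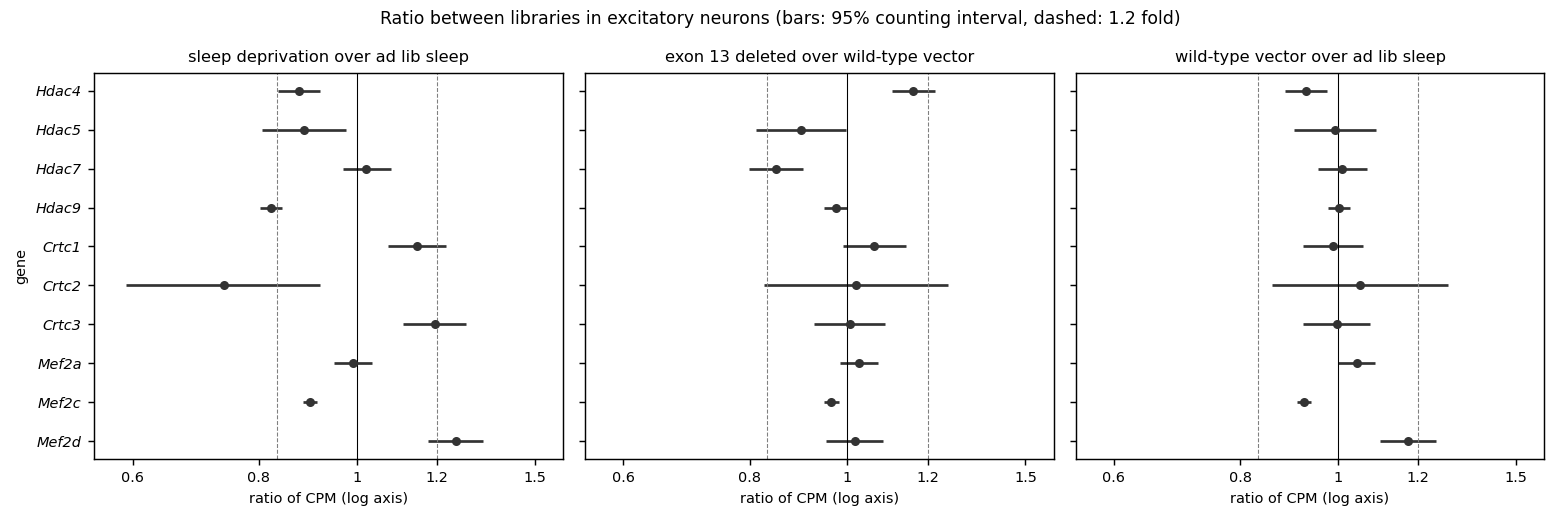
Ratio of CPM between libraries in excitatory neurons (horizontal axes, log scale) for each gene (vertical axis) in the 3 comparisons; bars are 95% counting intervals and dashed lines mark 1.2 fold. Hdac9, Crtc2 and Mef2d lie past the lines in sleep deprivation over ad lib sleep (0.822, 0.738 and 1.25), and no gene does in the other comparisons.

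By layer, Hdac9 was below 1 in 8 of 8 excitatory layers and past the fold with an interval that leaves out 1 in 6 of them. The ratios were 0.707 in L5 ET, 0.749 in L6 IT, 0.782 in L5 IT, 0.790 in L6 CT, 0.832 in L4/5 IT and 0.833 in L2/3 IT, with 0.895 in L5/6 NP and 0.927 in L6b. Mef2d was above 1 in 8 of 8 layers and past the fold in 5, at 1.24 to 1.33. With the WT vector over the same ad lib library, Mef2d was above 1 in 7 of 8 layers and past the fold in 2. Layers share their libraries and are not independent. Crtc3 was past the fold after sleep deprivation in L5 IT (59.32 against 41.15 CPM, ratio 1.44, 1.21 to 1.71) and L5 ET (1.27). So were Hdac4 in L4/5 IT (0.793) and L5 ET (0.797), Hdac7 in L6 CT (0.771), and Crtc1 in L4/5 IT (1.28) and L6b (2.05, 29 against 18 UMIs). Mef2c lay on both sides of 1, lower in L2/3 IT (1109 against 1396 CPM, ratio 0.794, 0.772 to 0.817) and higher in L5/6 NP (704.8 against 583.6 CPM, ratio 1.21, 1.08 to 1.35). For Crtc2 in L6b there were 0 UMIs in 46 nuclei after sleep deprivation, a count that allows up to 3, and 8 UMIs after ad lib sleep. Over the 8 layers 20 of 77 pairs of gene and layer were past this rule, against 18.3% of all pairs.

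Outside the excitatory neurons, Hdac9 in microglia was 231.4 CPM after sleep deprivation (52 UMIs in 88 nuclei) and 621.6 CPM after ad lib sleep (232 UMIs in 226 nuclei), a ratio of 0.372 (0.270 to 0.505). The WT library lay between, at 485.6 CPM. Excitatory markers in microglia had a median of 0.559 of their excitatory level after ad lib sleep and 0.274 after sleep deprivation. Single markers overlapped, from 0.160 to 1.22 and from 0 to 0.8225. The source of this RNA and its part in the ratio were not tested. With nuclei of at least 2000 UMIs thinned to that depth, which left 41 nuclei after ad lib sleep and 60 after sleep deprivation, the ratio was 0.231. In astrocytes Hdac9 was 247.9 against 364.6 CPM (ratio 0.680, 0.591 to 0.780), 0.784 with doublets kept, and excitatory markers there were at 0.361 and 0.434. Hdac9 was also lower in mural cells (0.636), fibroblasts (0.554, in 46 and 60 nuclei), Pvalb neurons (0.826) and Lamp5 and Sncg neurons (0.767). Sst neurons had 352 against 297.8 CPM. Fibroblast Hdac9 was also lower without sleep deprivation, at 0.501 with the WT vector over the same ad lib library.

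Hdac4 in astrocytes was 199.7 CPM after sleep deprivation (261 UMIs) and 114.3 CPM after ad lib sleep (180 UMIs), a ratio of 1.75 (1.44 to 2.12). It was 1.69 after thinning and 1.51 with doublets kept, and 1.55 against the WT vector library. Hdac4 was also higher in oligodendrocytes (67.53 against 46.79 CPM, ratio 1.44, 1.04 to 2.01). In oligodendrocytes Hdac4 was at 0.376 of the excitatory level after ad lib sleep, under the 0.458 of excitatory markers, and at 0.620 after sleep deprivation, above their 0.483.

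Crtc3 was higher in oligodendrocyte precursors (113.3 against 63.85 CPM, 43 against 33 UMIs, ratio 1.77), striatal projection neuron-like nuclei (1.52), oligodendrocytes (1.48) and astrocytes (1.22). Mef2c was lower in striatal projection neuron-like nuclei (0.764), oligodendrocyte precursors (0.704) and mural cells (0.776). With the WT vector over the same ad lib library it was also lower past the rule in mural cells (0.806) and oligodendrocyte precursors. In precursors Mef2c was at 0.437, 0.342, 0.390 and 0.502 of the excitatory level, close to the median share of excitatory markers there (0.344 to 0.416). Microglial Mef2c (1931 against 1672 CPM) and Mef2a (1619 against 1383 CPM) were inside the fold. Over the 10 classes 16 of 99 pairs of gene and class were past the rule, against 13.9% of all pairs.

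**Figure D3:**
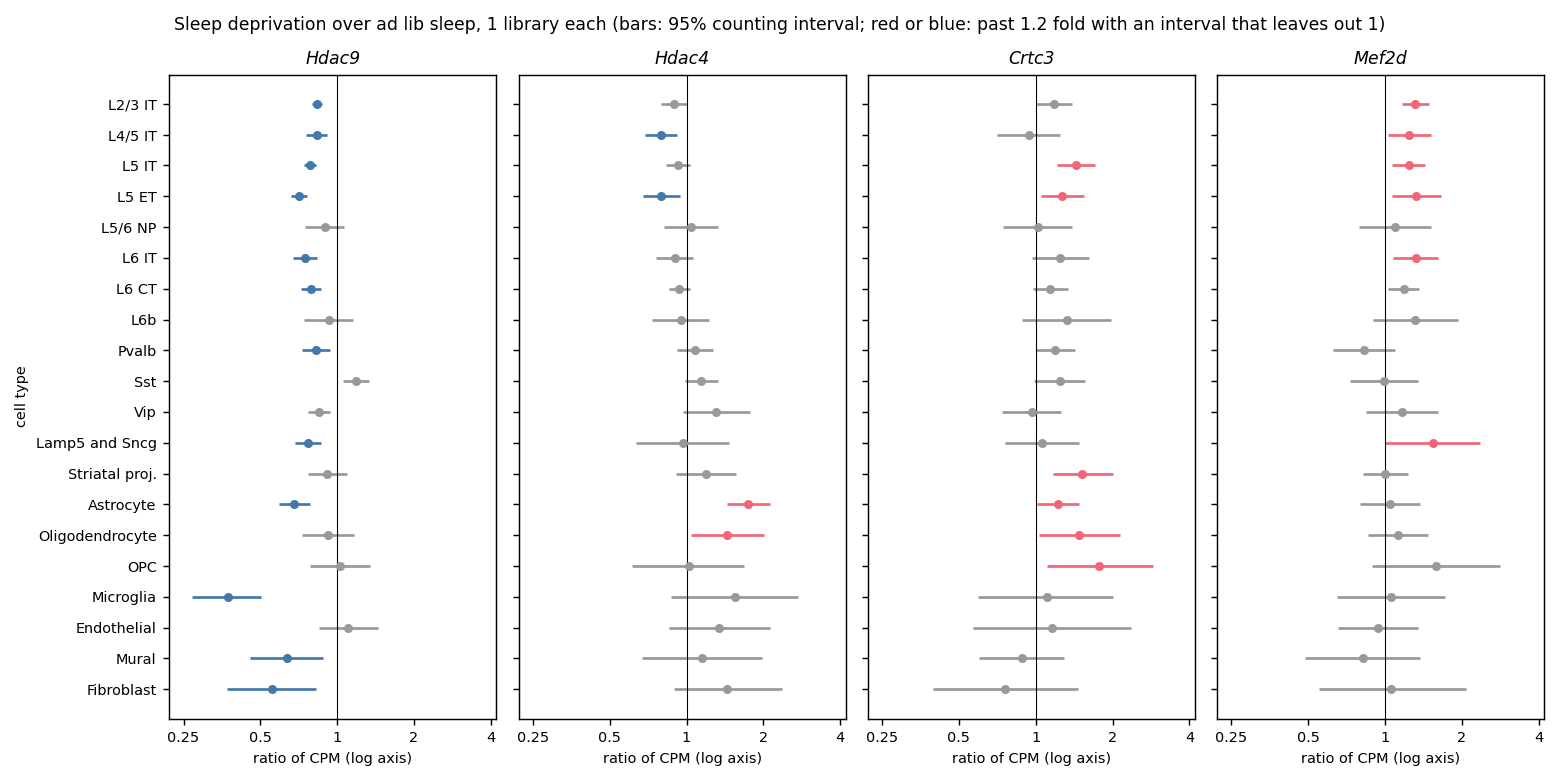
Ratio of CPM, sleep deprivation over ad lib sleep (horizontal axes, log scale), for Hdac9, Hdac4, Crtc3 and Mef2d by cell type (vertical axis); bars are 95% counting intervals, and red or blue points are past 1.2 fold with an interval that leaves out 1. Hdac9 is below 1 in all 8 layers and lowest in microglia (0.372), and Hdac4 is highest in astrocytes (1.75).

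Between the vectors, no gene of the 10 was past 1.2 fold in excitatory neurons, where 11.0% of 12014 genes were. Hdac4 was higher with Ex13del (134.3 against 115.6 CPM, ratio 1.16, 1.11 to 1.22) and Hdac7 lower (74.5 against 87.71 CPM, ratio 0.849, 0.799 to 0.903). Hdac5 was 0.900 (0.811 to 0.997), Hdac9 0.974, Mef2c 0.964 (0.947 to 0.981), and Crtc1, Crtc2, Crtc3, Mef2a and Mef2d lay between 1.006 and 1.06. The median log2 ratio was 0.02 for the 10 genes and 0.04 for all genes. Of all genes 9.21% were past the fold higher and 1.82% lower, and 5.73% and 3.55% with TMM factors.

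By layer, 9 of 79 pairs were past the rule against 9.20% of all pairs, and 3 of these were in L5 IT. There Hdac4 was 148 against 119.5 CPM (ratio 1.24, 1.12 to 1.38), Hdac5 28.94 against 38.12 CPM (0.759, 0.612 to 0.939) and Hdac7 83.32 against 109.3 CPM (0.762, 0.673 to 0.864). In L5 IT nuclei without a vector UMI the same ratios were 1.19 (1.04 to 1.35), 0.802 (0.623 to 1.03) and 0.866 (0.746 to 1.005), so the intervals of Hdac5 and Hdac7 then took in 1. Hdac4 was also higher in L5 ET (1.31, and 1.32 without vector UMIs), and Hdac7 lower in L6 IT (0.766, and 0.764 without) and in L6b (0.495, 33 against 51 UMIs). Hdac9 was lower in L5/6 NP (0.777), and Mef2d was higher in L6 CT (1.23, and 1.27 without vector UMIs) and lower in L6 IT (0.807). Without vector UMIs the latter was 0.852 (0.667 to 1.09), and the interval took in 1.

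Among the 10 classes 9 of 100 pairs were past the rule against 7.43%. Microglia had less Mef2c (1455 against 1848 CPM, ratio 0.787, 0.710 to 0.873) and less Mef2a (1194 against 1484 CPM, ratio 0.805, 0.718 to 0.903) with Ex13del, in 217 nuclei of each library. Excitatory markers in microglia were at 0.464 of their excitatory level with Ex13del and 0.796 with WT, and their part in these ratios was not tested. Endothelial Hdac7 was 137.6 against 208.6 CPM (59 against 99 UMIs, 0.660), oligodendrocyte Hdac5 50.16 against 75.36 CPM (0.666), and fibroblast Mef2c 0.524 in 47 and 34 nuclei. Astrocyte Hdac9 (1.205), precursor Mef2c (1.24) and striatal Hdac4 (1.36) and Mef2d (1.26) were higher. Interneurons had more Hdac9 in Vip (825.5 against 628.7 CPM, 1.31) and Pvalb neurons (1.28) and less Mef2c in Sst neurons (0.815).

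The WT vector library and the ad lib library show how far libraries without sleep deprivation lay apart, though they also differ by vector and by SIK3, and they share the ad lib library with the sleep comparison. In excitatory neurons none of the 10 was past 1.2 fold, where 14.8% of 11991 genes were. Of all genes 4.69% were past it higher and 10.1% lower, and 6.57% and 7.65% with TMM factors. Mef2d was nearest, at 1.17 (1.10 to 1.25), and this stands beside its 1.25 after sleep deprivation. Hdac9 was 1.002 (0.978 to 1.03) beside 0.822, Mef2c 0.926 beside 0.899, Hdac4 0.929 beside 0.876, and Crtc3 0.997 beside 1.19. By layer 4 of 79 pairs were past the rule against 11.0%, and by class 7 of 99 against 8.72%. Of the pairs by class, microglial Hdac9 was 0.781 (0.646 to 0.944), fibroblast Hdac9 0.501, endothelial Hdac7 1.42 and endothelial Mef2a 1.32. Mef2c was 2.003 in fibroblasts and 0.806 in mural cells, and was also lower in oligodendrocyte precursors. The median log2 ratio was -0.000505 over the 10 genes and -0.02 over all genes.

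The vector feature had 0 UMIs in kept nuclei of the libraries without vector, where a count of 0 allows up to 3, 2815 in the WT and 4803 in the Ex13del library. Of excitatory nuclei, 541 of 2653 (WT) and 532 of 2055 (Ex13del) had at least 1 vector UMI, 83 and 95 had at least 3, and 21 and 49 at least 10. Glial and vascular nuclei, in which hSyn is not known to be active, had at least 1 in 296 of 1749 (16.9%, WT) and 322 of 1626 (19.8%, Ex13del), beside 20.4% and 25.9% of excitatory nuclei, at median depths of 2142 and 2192 against 9357 and 10226 UMIs. At least 3 were found in 15 and 27 of them and at least 10 in 1 and 4. A single vector UMI is therefore not read as expression. Sik3 in excitatory neurons was 147.3, 173.7, 192.8 and 192.3 CPM. In nuclei with at least 3 vector UMIs Sik3 was 2.17 (WT) and 2.75 times (Ex13del) the level of vector-free nuclei, and whether reads of the transgene are counted to Sik3 is not given in the sources used here. A 3' count sees neither exon 13 nor its loss, so it checks that a vector was present and not which one. Nuclei of 1 library are not replicates, and the ratios below compare vector-rich nuclei with vector-free nuclei of the same library, weighted to the same layers. Their intervals cover counting error of the vector-rich nuclei only, not that of the vector-free nuclei or of the weights.

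In Ex13del nuclei with at least 3 vector UMIs, Mef2c was 519.7 CPM against 1027 CPM in vector-free nuclei (ratio 0.506, 0.466 to 0.549), and with at least 10 it was 313.5 against 1069 CPM (0.293, 0.253 to 0.338). The latter level lies under the lowest vector-free layer, L6b at 422 CPM, and without layer weights the ratios were 0.530 and 0.320. Hdac7 was 39.64 against 82.64 CPM (0.480, 0.350 to 0.642) and then 19.8 against 85.5 CPM (0.232, 12 UMIs), under the lowest vector-free layer (L5/6 NP, 41.4 CPM). Hdac5 was 0.461 (16 UMIs) and 0.420 (8 UMIs), and Mef2d 0.788 and 0.682. Crtc3 was 1.26 (0.976 to 1.59) and 1.44 (1.04 to 1.96), and Hdac4, Hdac9, Crtc1 and Mef2a lay between 0.811 and 1.199.

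In WT nuclei with at least 3 vector UMIs, Hdac9 was 271.9 against 442.7 CPM (ratio 0.614, 0.545 to 0.690), and with at least 10 it was 160.3 against 483.3 CPM (0.332, 0.244 to 0.441), under the lowest vector-free layer (L6 CT, 207.5 CPM). Mef2d was 1.35 (1.10 to 1.63) and 1.499 (1.02 to 2.13), and Mef2c 0.864 (0.808 to 0.923) and 0.708. Hdac7 was 1.01 and 1.05, and Hdac5 1.02 in both. At 3 or more and at 10 or more vector UMIs, Hdac9 was thus 0.614 and 0.332 in the WT library beside 0.975 (0.893 to 1.06) and 0.811 (0.712 to 0.918) in the Ex13del library. The difference between vectors rests on 83 and 95 nuclei of 1 library each and was not tested.

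Many genes differed in such nuclei. Above a floor of 20 CPM, 41.0% (WT, at least 3 UMIs), 65.5% (WT, at least 10), 66.8% (Ex13del, at least 3) and 75.4% (Ex13del, at least 10) were past 1.2 fold, with 2, 5, 5 and 6 of the 9 tested members. These counts are not above the background. At 1 to 2 vector UMIs 3.11% (WT) and 4.54% (Ex13del) of genes and 0 of 9 members were past it, with members at 0.908 to 1.14. Median depth was 10533 UMIs in vector-rich against 9174 in vector-free WT nuclei, and 10205 against 9876 in Ex13del nuclei.

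The layer name of the vector-rich Ex13del nuclei goes against their markers. Of the 95 nuclei, 68 were in the L5 IT clusters, against 19 of 83 in the WT library. In the 43 of them with at least 10 vector UMIs, the L5 IT markers Deptor, Il1rapl2 and Etv1 stood at 13.96, 343.1 and 1.995 CPM, against 156.8, 1646 and 146.9 CPM in 247 vector-free L5 IT nuclei. Excitatory markers were mixed: Slc17a7 (157.6 against 213.3 CPM) and Neurod6 (67.83 against 75.36 CPM) were closer, while Sv2b was 51.87 against 476.9 CPM, Arpp21 498.7 against 1681 CPM and Slc30a3 15.96 against 68.31 CPM. Of the 8 inhibitory markers, Nxph1 was 143.6 against 7.376 CPM, Gad2 67.83 against 10.26 CPM, Slc32a1 53.86 against 5.131 CPM and Dlx6os1 9.975 against 1.283 CPM (5 and 4 UMIs). Gad1 was 9.975 against 10.58 CPM, Adarb2 25.93 against 20.52 CPM and Erbb4 27.93 against 25.66 CPM, and Dlx1 had 0 UMIs, a count that allows up to 3. Atf3, a stress-response transcription factor picked after its values were seen, was at 209.5 CPM (105 UMIs) against 0.641 CPM. In clusters made without centring, 138 excitatory nuclei, 119 of them from the Ex13del library, formed a cluster without a layer name. The vector feature and Atf3 were among its leading genes. How many of the 95 nuclei it holds was not counted. In the WT library, 19 L5 IT nuclei with at least 3 vector UMIs had Deptor at 182.7, Il1rapl2 at 918.2 and Etv1 at 89.14 CPM. The 370 vector-free L5 IT nuclei there had 139.6, 1616 and 156.9 CPM. Sv2b was 231.8 against 473 CPM and Slc17a7 276.3 against 240.3 CPM. The weights to L5 IT are therefore uncertain in both vector libraries, and what type the vector-rich nuclei are was not tested.

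**Figure D4:**
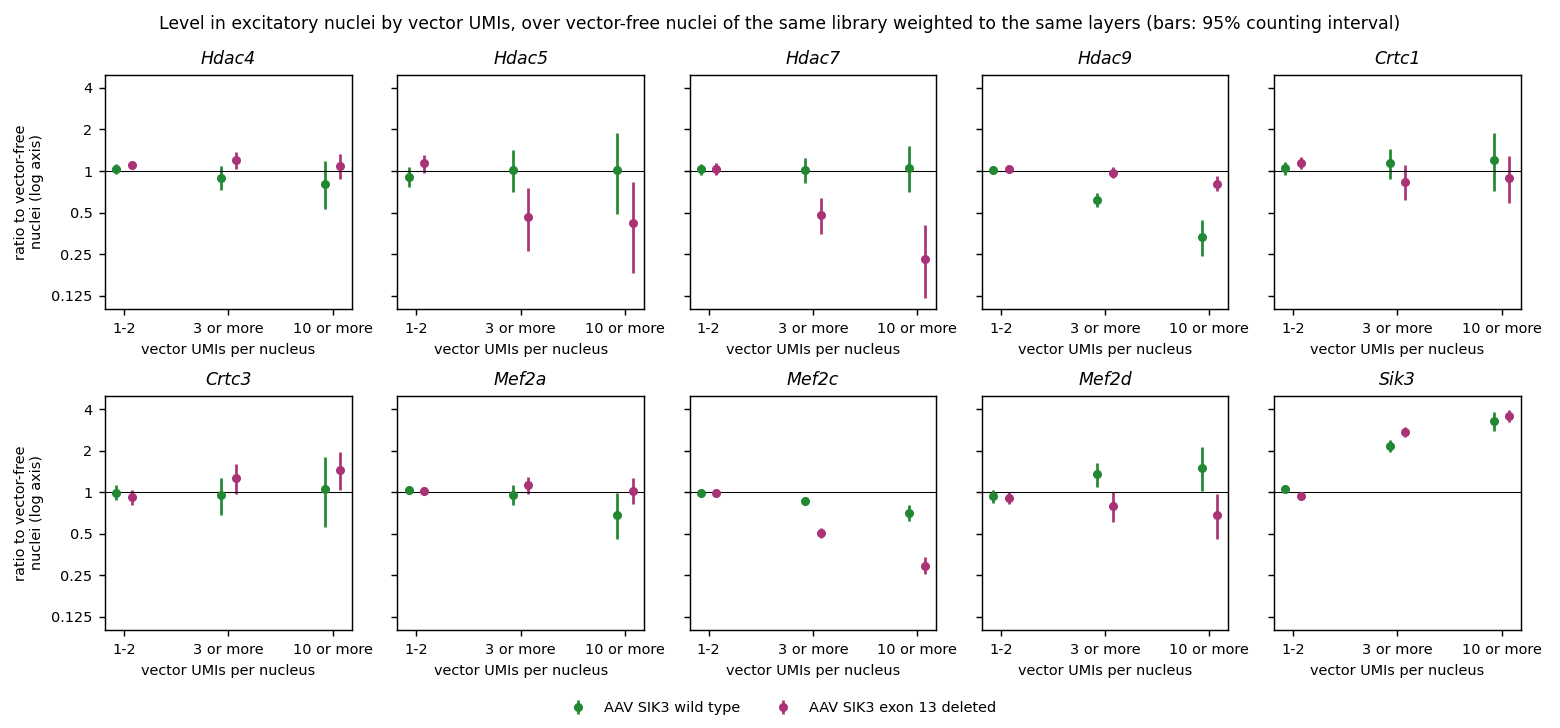
Ratio of level (vertical axes, log scale) in excitatory nuclei with 1 to 2, at least 3 or at least 10 vector UMIs over vector-free nuclei. The vector-free nuclei are of the same library and layer-weighted. Shown are 9 of the 10 genes and Sik3. Bars are 95% counting intervals of the nuclei with vector UMIs only. Mef2c and Hdac7 are lowest in the Ex13del library (0.293 and 0.232 at 10 or more) and Hdac9 in the WT library (0.332), while at 1 to 2 UMIs points lie near 1.

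The rest of the pathway was taken as 78 genes, of which 71 were above 5 CPM in the mean of both libraries. After sleep deprivation 13 were past 1.2 fold higher and 6 lower, 19 in all, beside the 27.9% of all genes; their median log2 ratio was 0.03. By role, 4 of 21 upstream kinases were higher and 0 lower, 3 of 14 CREB and CRTC targets higher and 4 lower, and 3 of 8 MEF2 targets higher and 1 lower. Arc, an immediate early gene of synapses, was 42.07 against 21.94 CPM (ratio 1.92, 1.74 to 2.11) and Vgf, a secreted neuropeptide precursor, 48.74 against 28.77 CPM (1.69). Camk2a, a kinase of the postsynapse, was 815.6 against 631.7 CPM (1.29), and Pde4d and the calcineurin subunit Ppp3ca were 1.04 and 1.03. Against the same ad lib library the WT vector library had Arc at 1.195 (26.22 CPM) and Camk2a at 1.19.

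With Ex13del over WT, 11 pathway genes were higher and 1 lower, 12 in all, beside 11.0% of all genes. CREB and CRTC targets made up 8 of the 11 higher (8 of 14, 0 lower, median log2 ratio 0.29), MEF2 targets 3 of 8, and upstream kinases 0 of 21 higher and 1 lower; Bdnf is on both target lists. Bdnf, the neurotrophin, was 50.4 against 23.95 CPM (ratio 2.10, 1.91 to 2.31), Scg2, a granin of secretory vesicles, 43.59 against 25.19 CPM (1.73, 1.57 to 1.91) and Vgf 34.9 against 26.82 CPM (1.30). Pde4d, Ppp3ca and Camk2a were 1.05, 0.961 and 0.941. In nuclei without a vector UMI, Bdnf was 33.03 against 24.47 CPM (1.35, 1.197 to 1.52), Scg2 1.31 (1.17 to 1.48) and Vgf 1.13 (1.002 to 1.27), and 6 of 14 CREB and CRTC targets and 3 of 8 MEF2 targets were past the fold, beside 10.4% of all genes there. With the WT vector over ad lib sleep 5 pathway genes were higher and 5 lower, beside 14.8%. There Sik2, a salt-inducible kinase, was 112.8 against 77.47 CPM (1.46, 1.38 to 1.54), the MEF2 target Homer1 405.9 against 285.6 CPM (1.42), and the clock gene Per1 36.55 against 26.47 CPM (1.38), with Pde4d 1.06, Ppp3ca 1.05 and Camk2a 1.19. Sik2 after sleep deprivation was 1.32 over the same ad lib library.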

How the data were processed

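Nuclei were profiled with the 10x Chromium 3' v3.1 kit, per the labels' protocols. The deposited values are UMI counts, whole numbers for each nucleus and gene, without cell type annotation. The submitters' processing notes name Cell Ranger (version 6.1.2) and the mm10 build. The genes, lists and markers used here were chosen with earlier results of these data known. Nuclei with at least 500 genes and under 5% mitochondrial UMIs were kept. The automatic Scrublet threshold called 0 to 4 nuclei per library, so the highest-scoring share predicted by loading (0.8% per 1000 barcodes) was removed instead, 297 to 696 nuclei. Barcodes shared by library pairs numbered 9 to 16. Values were centred within libraries, reduced to 30 principal components of 2000 variable genes (the members, pathway genes and vector feature took no part) and clustered with Leiden at resolution 1 (scanpy 1.11.5, leidenalg 0.10.2, scikit-learn 1.9.0). Clusters were named from marker lists with thresholds set after the data were seen. A marker counted at 0.25 of its highest cluster level (0.5 for layers and interneuron types). Classes other than excitatory needed 3 markers and at least 1 among the 10 leading genes of the cluster. An excitatory name needed 0.5 of its list, with every other list under 0.5. It was withheld from a cluster over 3 fold under the library median depth without an excitatory marker among its leading genes. Layer and interneuron names needed 0.5 of the list and 3 markers. A cluster with over 70% of its nuclei from 1 library got no layer name.

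Counts were summed per class and library and expressed as CPM, with exact Poisson intervals for levels and exact conditional intervals for ratios (scipy 1.17.1, numpy 2.4.6). Layer-weighted ratios by vector UMIs instead have the Poisson interval of the nuclei with vector UMIs. The level of the vector-free nuclei was taken there as fixed. In excitatory neurons a ratio past 1.2 fold at a mean of at least 5 CPM was counted; in classes and layers its 95% interval also had to leave out 1; by vector UMIs a mean of at least 20 CPM was needed. Named pathway genes were the 3 of highest mean CPM and the 3 of largest absolute log2 ratio in each comparison (above 20 CPM in the mean, with 100 or more UMIs), and 2 genes of closest pattern were named per member. A gene that this rule took is not reported here. Coordinates are from GENCODE vM21 and promoters from RefSeq on GRCm38.p6. Alternatives were no doublet removal, at least 1000 genes, other scaling (edgeR 4.0.16 TMM factors, DESeq2 1.42.0 size factors, used as scaling only), thinning to 2000 UMIs, equal layer weights, a floor of 20 CPM, clusters without centring, and, chosen after seeing the data, vector thresholds and the WT vector library as reference.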

Additional observations from a re-analysis of the deposited data

Results flagged for a closer look

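Some genes lay past 1.2 fold in opposite directions in different cell types of the same comparison, each with a 95% counting interval that leaves out 1. With 1 library per group the difference between the cell types was not tested, and the cell types named are the highest and the lowest ratio. After sleep deprivation over ad lib sleep, Hdac4 was 1.747 in astrocytes and 0.7933 in L4/5 IT neurons, and Mef2c was 1.208 in L5/6 NP neurons and 0.7036 in oligodendrocyte precursors. With Ex13del over WT, Hdac9 was 1.313 in Vip neurons and 0.7775 in L5/6 NP neurons, Mef2c was 1.243 in oligodendrocyte precursors and 0.5243 in fibroblasts, and Mef2d was 1.256 in striatal projection neuron-like nuclei and 0.8069 in L6 IT neurons, where nuclei without a vector UMI gave 0.852 (0.667 to 1.09), an interval that takes in 1. With the WT vector over ad lib sleep, Hdac4 was 1.228 in Sst neurons and 0.8029 in L5 ET neurons, and Mef2c was 2.003 in fibroblasts and 0.8063 in mural cells.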

How the results depend on the processing

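No paired analysis was possible because each group has 1 library, and for the same reason no replicate could be left out. Of 315 single ratios of the genes under alternatives, 280 stayed within the counting interval of the reported ratio, 34 moved outside it and 1 reversed: Crtc2 after sleep deprivation, 0.738 as reported and 1.144 with nuclei thinned to 2000 UMIs. The count of the 10 genes past 1.2 fold after sleep deprivation was 3 and became 1 after thinning, beside 27.9% and 37.6% of all genes. With Ex13del over WT it was 0 and became 1 with TMM factors, with DESeq2 size factors and with layers weighted equally, beside 9.28%, 9.34% and 14.5% of all genes. With the WT vector over ad lib sleep it was 0 and became 1 with TMM factors, with DESeq2 size factors and after thinning, beside 14.2% with either scaling and 25.55% after thinning. Pathway genes past the fold numbered 19, 12 and 10 in the 3 comparisons (sleep deprivation, Ex13del over WT, WT over ad lib sleep), and 12, 4 and 4 with a floor of 20 CPM, where 22.03%, 4.70% and 8.28% of all genes were; the last became 18 after thinning. Genes past the fold in WT vector-rich nuclei went from 2 at 3 vector UMIs to 5 at 10. The cause was not tested, except that a higher floor tests fewer genes. Depth limits Crtc2, fibroblasts and L6b.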
